A study of Homo sapiens with 4 samples.

Results

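The genes described here carry out MHC class I antigen presentation. They are the class I heavy chains HLA-B, HLA-C and HLA-E, the light chain B2M, the peptide transporter subunits TAP1 and TAP2, the immunoproteasome subunits PSMB8 and PSMB9, and the class I transactivator NLRC5. They were chosen by name, and all 9 were found among the 31907 gene names of the 4 libraries. The libraries came from HGC-27, a human gastric cancer cell line, grown with phosphate-buffered saline (PBS, 2 libraries) or with recombinant interleukin-17B (rIL-17B, 200 ng/ml, 2 libraries) and collected after 48 h. The labels name no genetic change in either group and do not say whether libraries of a group came from separate cultures, so the p-values measure the spread between libraries. Sequencing followed the Smart-seq2 method, in which cDNA is primed on the poly(A) tail with oligo-dT and amplified by PCR, and reads were counted per gene. The labelled protocol speaks of monocytes, whereas the other labels give HGC-27.

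Nucleated cells use this pathway to show fragments of their own proteins to CD8+ T cells and natural killer cells. The proteasome cuts proteins into peptides, and in cells exposed to interferon-γ its catalytic subunits are exchanged for PSMB8, PSMB9 and PSMB10. TAP1 and TAP2 form the pump that carries peptides into the endoplasmic reticulum, where heavy chain and B2M are loaded before they travel to the surface. NLRC5 enters the nucleus and drives transcription of many of these genes together with the RFX, CREB/ATF and NF-Y factors bound upstream of them, while interferon regulatory factors and NF-κB act through elements of their own. Loss of class I expression is a well-known route by which tumours escape T cells.

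The upstream sequences of 7 of the 9 genes were read from RefSeq promoter entries on GRCh38.p14, which hold 9 start sites for them. No entry was matched for HLA-E or NLRC5. The 250 bases before the start are shown for HLA-B and PSMB9, the members with the lowest counts relative to PBS in the results that follow, and for the closest counterpart of each, HLA-C and TAP1. Each is written 5′ to 3′ on the gene's own strand. Capitals mark 4 motifs searched on both strands, the interferon-stimulated response element core AANNGAAA, the NF-κB motif GGGNNTTNC, the NF-Y box CCAAT and the CREB/ATF core TGACG.
HLA-B upstream window, chr6:31357180-31357429, minus strand: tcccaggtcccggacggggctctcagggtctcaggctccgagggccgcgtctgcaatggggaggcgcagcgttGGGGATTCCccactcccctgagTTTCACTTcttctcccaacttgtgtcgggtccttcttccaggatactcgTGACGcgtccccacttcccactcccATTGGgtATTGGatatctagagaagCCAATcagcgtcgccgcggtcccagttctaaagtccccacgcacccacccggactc
HLA-C upstream window, chr6:31272093-31272342, minus strand: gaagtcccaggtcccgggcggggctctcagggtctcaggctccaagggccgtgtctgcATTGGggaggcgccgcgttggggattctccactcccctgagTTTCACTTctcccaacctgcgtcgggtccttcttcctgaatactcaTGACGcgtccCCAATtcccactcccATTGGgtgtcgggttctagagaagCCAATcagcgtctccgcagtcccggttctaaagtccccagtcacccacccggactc
PSMB9 upstream window, chr6:32853942-32854191, plus strand: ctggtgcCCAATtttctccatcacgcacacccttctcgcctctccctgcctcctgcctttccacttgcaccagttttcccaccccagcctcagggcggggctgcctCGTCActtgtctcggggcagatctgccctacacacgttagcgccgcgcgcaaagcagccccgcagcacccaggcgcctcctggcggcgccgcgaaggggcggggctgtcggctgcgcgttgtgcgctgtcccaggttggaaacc
TAP1 upstream window, chr6:32853705-32853954, minus strand: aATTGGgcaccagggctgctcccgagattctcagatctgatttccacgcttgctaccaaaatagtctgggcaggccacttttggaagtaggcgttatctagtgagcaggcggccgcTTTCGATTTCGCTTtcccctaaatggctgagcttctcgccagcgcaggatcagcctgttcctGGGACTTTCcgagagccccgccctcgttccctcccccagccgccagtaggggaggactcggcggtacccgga

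The windows of HLA-B and HLA-C aligned with 226 identical bases of 254 columns (89.0%). With the last base before the start counted as -1, the HLA-B window held the NF-κB motif from -177 to -169, the interferon-stimulated element core from -155 to -148 on the reverse strand, the CREB/ATF core from -106 to -102 and 3 NF-Y boxes. HLA-C held the interferon-stimulated element core from -151 to -144 and the CREB/ATF core from -105 to -101 at nearly the same places, with 4 NF-Y boxes and no match to the NF-κB motif as spelled here. TAP1 and PSMB9 lie head to head on opposite strands, with starts 488 bases apart. The TAP1 window held a pair of overlapping interferon-stimulated element cores from -134 to -121, the NF-κB motif from -72 to -64 and an NF-Y box from -249 to -245, and the window of the other TAP1 start held no match to the 4 motifs. The PSMB9 window held no interferon-stimulated element core and no NF-κB motif, and had a CREB/ATF core from -144 to -140. Its NF-Y box from -243 to -239 is the same site as the NF-Y box of TAP1, since the windows share 13 bases. The interferon-stimulated element cores and NF-κB motif of TAP1 lie between the starts that are 488 bases apart. They are therefore also upstream of PSMB9, beyond its window. B2M held all 4 motifs, TAP2 held 2 overlapping interferon-stimulated element cores and a CREB/ATF core, 1 PSMB8 start held the NF-κB motif and the other a CREB/ATF core. Among all 35116 promoter entries, windows of this length held the interferon-stimulated element core in 20.31%, the NF-κB motif in 14.18%, the NF-Y box in 32.01% and the CREB/ATF core in 21.22%. A match gives letters and does not show that a factor was bound.

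**Figure D1:**
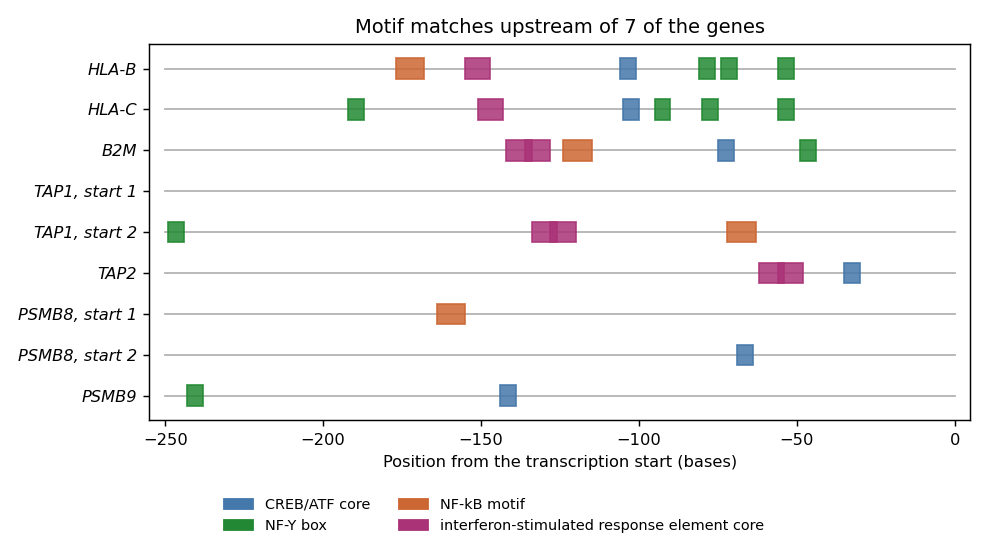
Motif matches in the 250 bases before each RefSeq start of 7 class I pathway genes, with position from the start in bases on the x axis and 1 line per start site. Boxes mark matches on either strand, and HLA-B and HLA-C have their interferon-stimulated element core and CREB/ATF core at nearly the same places, while the NF-κB box at -177 appears in HLA-B.

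After rows without a usable gene name were removed, the libraries totalled 15904594 and 12888029 (PBS) and 14615341 and 17555879 counts (rIL-17B), and 3 counts correspond to 0.171 to 0.233 CPM (the count divided by the library total and multiplied by 1000000). Counting error is all that this floor covers. The libraries labelled rIL-17B did not resemble each other. The chi-square between their counts was 139 for each degree of freedom, against 3.66 for the PBS pair, and the library rIL-17B 1 stood apart from the other 3. The extracellular matrix gene FN1 was an example, with 33131 and 32458 CPM with PBS, 149 CPM in rIL-17B 1 and 27450 CPM in rIL-17B 2. Values are therefore given for each library, and the fold changes of the 9 genes and of the pathway lists are given with and without rIL-17B 1.

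On fitted fold changes, 8 of the 9 genes had less RNA on average with rIL-17B than with PBS, and NLRC5 had more. Of all 16361 genes tested, 8608 were fitted lower and 7753 higher. No difference passed the test when the 4 libraries were compared. In edgeR's quasi-likelihood test 0 of the 9 genes had a Benjamini-Hochberg adjusted p under 0.05, against a background of 0% of the 16361 genes tested. At an unadjusted p under 0.05 there was 1 of 9, PSMB8, against 1.38% of all genes (226 genes), and DESeq2 called 0 genes. The median log2 fold change of the 9 genes was -0.43, beside -0.03 over all genes tested. Without rIL-17B 1 it was -0.08, beside -0.01. Both rIL-17B libraries lay below both PBS libraries in CPM for 6 of the 9 genes, where 27.5% of all genes tested did, and above both for NLRC5, where 31.5% did. After TMM normalization, edgeR's scaling by trimmed means, 7 of the 9 were below, where 30.4% of all genes were, and NLRC5 was again above, where 28.5% were. In bulk RNA, fewer cells that express a gene and less RNA per cell cannot be told apart.

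**Figure D2:**
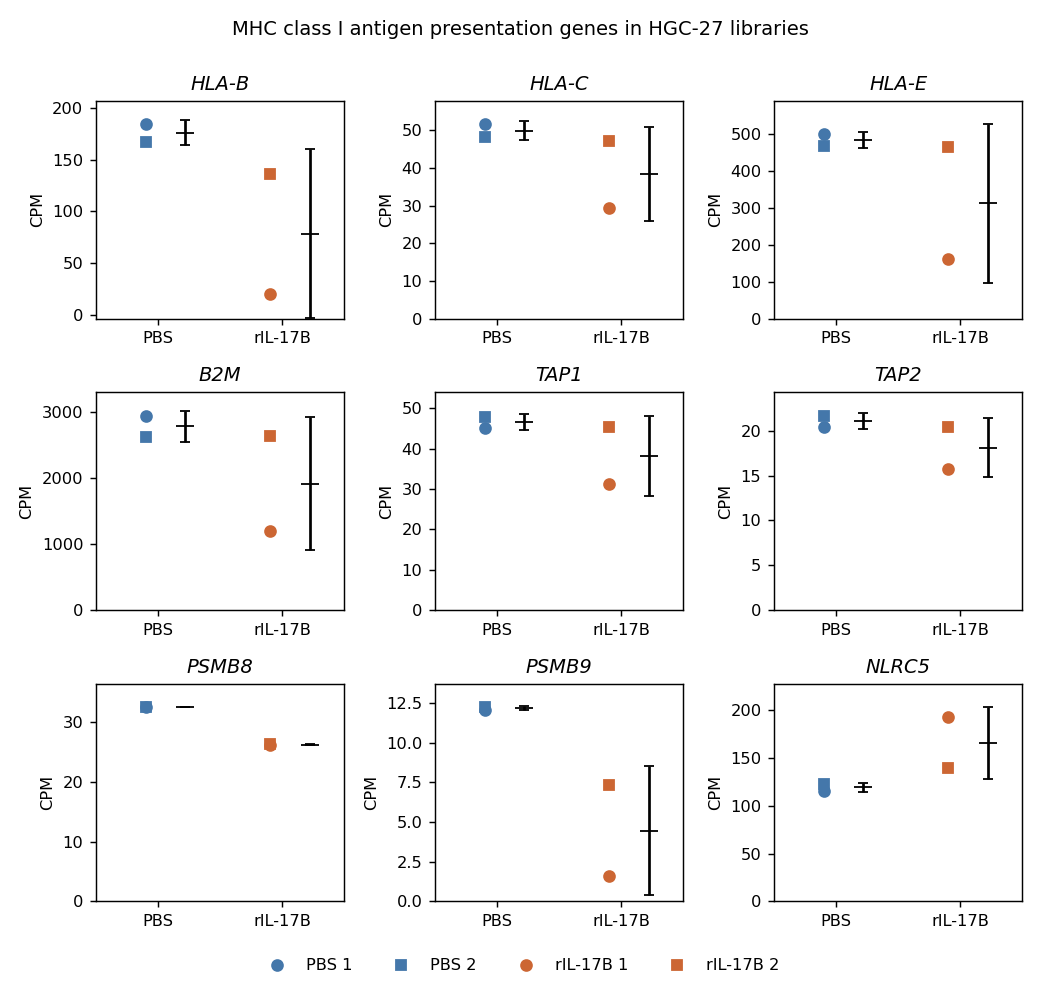
CPM (counts scaled to the library total, y axis) of the 9 class I pathway genes in the PBS and rIL-17B libraries, with circles for replicate 1, squares for replicate 2, and bars for the mean and SD of 2 libraries. The circle of rIL-17B 1 lies far from the other 3 libraries for HLA-B (20.4 CPM), HLA-E (160 CPM) and B2M (1200 CPM), and PSMB8 is the gene whose rIL-17B libraries lie closest together (26.2 and 26.3 CPM).

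Levels of different genes were compared per kilobase of merged exons (GENCODE 29 on GRCh38, which matches the build named in the submitters' processing notes). With PBS, B2M stood highest at 458 ± 38.6 CPM per kb (SD, n = 2), followed by HLA-E at 162 ± 7.18, HLA-B at 57.7 ± 3.99 and HLA-C at 19.9 ± 0.991 CPM per kb. PSMB8 came next at 10.9 ± 0.0138 CPM per kb, then TAP1 at 9.69 ± 0.413, NLRC5 at 9.61 ± 0.397, PSMB9 at 3.96 ± 0.0431 and TAP2 at 3.30 ± 0.136 CPM per kb. Every neighbouring pair in this order was separated in both PBS libraries, except TAP1 and NLRC5, whose ranges overlapped. In rIL-17B 1 the order was different. NLRC5 took the 3rd place at 15.5 CPM per kb, HLA-B moved from the 3rd to the 6th at 6.68 CPM per kb, and PSMB9 was last at 0.512 CPM per kb. In rIL-17B 2 HLA-B kept the 3rd place, and PSMB9 was again last at 2.39 CPM per kb. These orders hold for merged exon length, which exceeds the longest coding transcript by unequal amounts. PSMB9 has 3072 merged exon bases against a transcript of 792, and TAP2 has 6390 against 5684. By transcript length the place of PSMB9 and of other genes could differ, which was not tested.

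**Figure D3:**
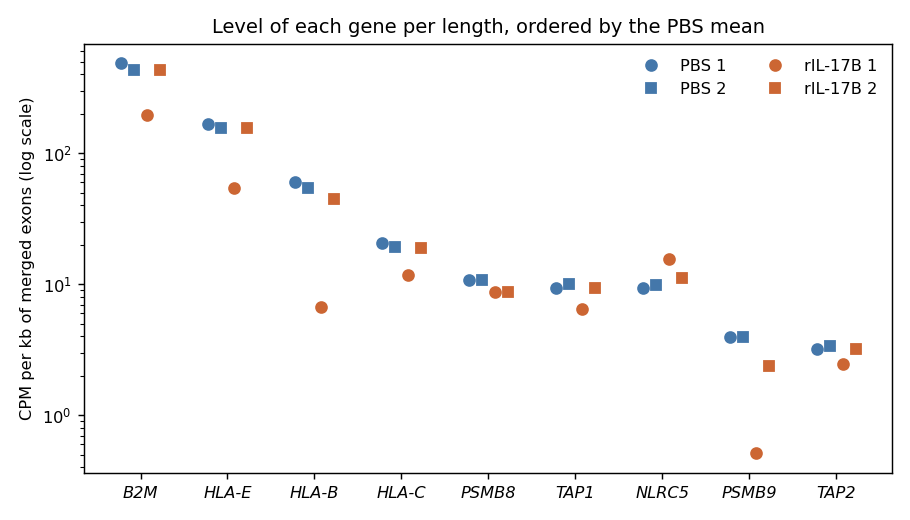
Level of each gene in CPM per kb of merged exons (y axis, log scale) in the 4 libraries, ordered by the PBS mean. B2M is highest in each library (197 to 485 CPM per kb), and HLA-B in rIL-17B 1 (6.68 CPM per kb) lies below HLA-C (11.8 CPM per kb).

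The heavy chain binds the peptide and is the part that T cell receptors and natural killer receptors read. HLA-B (ENSG00000234745.10, chromosome 6, minus strand, 31269491 to 31357188) had 185 and 167 CPM with PBS, and 20.4 CPM in rIL-17B 1 and 136 CPM in rIL-17B 2. Both rIL-17B libraries were below both PBS libraries, although far apart from each other. Its log2 fold change was -1.19 (SE 1.01, edgeR adjusted p = 0.662), and its annotated span runs across HLA-C, with which it shares 35 exon bases. HLA-C (ENSG00000204525.16, chromosome 6, minus strand, 31268749 to 31272130) had 51.6 and 48.1 CPM with PBS, 29.5 CPM in rIL-17B 1 and 47.2 CPM in rIL-17B 2. Here rIL-17B 2 was next to the lower PBS library, and the log2 fold change was -0.43 (SE 0.32, edgeR adjusted p = 0.661). HLA-E (ENSG00000204592.8, chromosome 6, plus strand, 30489467 to 30494205) is a less variable heavy chain that presents leader peptides of other class I chains to natural killer cells. It had 498 and 468 CPM with PBS, 160 CPM in rIL-17B 1 and 464 CPM in rIL-17B 2, with a log2 fold change of -0.67 (SE 0.61, edgeR adjusted p = 0.669). The groups did not overlap, but rIL-17B 2 was within 1 SD (21.4 CPM) of the PBS mean of 483 CPM.

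The 3 heavy chains did not keep their proportions. HLA-B made up 25.1% (95% Wilson interval 24.3 to 25.9) and 24.5% (23.6 to 25.4) of their summed counts with PBS, 9.69% (8.70 to 10.8) in rIL-17B 1 and 21.1% (20.3 to 21.8) in rIL-17B 2. HLA-C made up 7.03% and 7.04% with PBS, 14.0% (12.8 to 15.3) in rIL-17B 1 and 7.30% (6.83 to 7.79) in rIL-17B 2. The HLA-B interval of each rIL-17B library thus lay below those of both PBS libraries, and the HLA-C interval lay above them in rIL-17B 1 alone. HLA-E made up 67.8% (67.0 to 68.7) and 68.5% (67.5 to 69.4) with PBS, 76.3% (74.7 to 77.8) in rIL-17B 1 and 71.6% (70.8 to 72.5) in rIL-17B 2, above PBS in both. These intervals cover counting error, not the spread between cultures. The 3 shares make up 1 whole, so a lower share of HLA-B raises the others. In CPM, HLA-E was below both PBS libraries in both rIL-17B libraries. In 50-base windows of the longest coding transcript, 2.54% of HLA-B, 6.71% of HLA-C and 5.13% of HLA-E matched another gene exactly, and HLA genes differ between people and lines, so reads that fit the reference poorly or fit several genes could shift these counts, which was not tested.

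B2M (ENSG00000166710.18, chromosome 15, plus strand, 44711487 to 44718877) encodes the invariant light chain without which the classical heavy chains do not reach the surface. It had 2951 and 2619 CPM with PBS, 1200 CPM in rIL-17B 1 and 2636 CPM in rIL-17B 2. The groups overlapped, since rIL-17B 2 was between the PBS libraries, and the log2 fold change was -0.58 (SE 0.49, edgeR adjusted p = 0.662). For each 100 counts of B2M there were 24.9 and 26.1 heavy chain counts with PBS, 17.5 in rIL-17B 1 and 24.6 in rIL-17B 2. In rIL-17B 1, HLA-B (11.6% of the PBS mean) and HLA-E (33.2%) were further below PBS than B2M (43.1%), and HLA-C (59.1%) was less far below.

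TAP1 (ENSG00000168394.11, chromosome 6, minus strand, 32845209 to 32853978) had 45.1 and 48.0 CPM with PBS, 31.3 CPM in rIL-17B 1 and 45.3 CPM in rIL-17B 2. The groups overlapped in CPM by library total, and did not after TMM normalization. Its log2 fold change was -0.34 (SE 0.27, edgeR adjusted p = 0.661). TAP2 (ENSG00000204267.13, chromosome 6, minus strand, 32821833 to 32838780) had 20.5 and 21.7 CPM with PBS, 15.8 CPM in rIL-17B 1 and 20.4 CPM in rIL-17B 2, with a log2 fold change of -0.28 (SE 0.23, edgeR adjusted p = 0.662). Its rIL-17B 2 value lay just under the lower PBS value. The transporter genes stood at 67.2% (TAP1) and 74.9% (TAP2) of the PBS mean in rIL-17B 1 and at 97.4% and 96.9% in rIL-17B 2. Another annotated gene on the same strand, AL669918.1, covers 32.3% of the TAP2 exon bases and had 0 counts in each library. In 50-base windows of the longest coding transcript, 35.8% of TAP2 and 1.07% of TAP1 matched another gene exactly. Any effect of this overlap and of the shared windows on the TAP2 counts was not tested.

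PSMB9 (ENSG00000240065.7, chromosome 6, plus strand, 32844136 to 32859585), which replaces PSMB6 in the immunoproteasome, had 192 and 158 counts with PBS, 23 counts in rIL-17B 1 and 129 counts in rIL-17B 2. In CPM these were 12.1 and 12.3 with PBS, 1.57 in rIL-17B 1 and 7.35 in rIL-17B 2. Both rIL-17B libraries were well under the PBS pair, at 12.9% and 60.4% of its mean. The log2 fold change was -1.47 (SE 0.86, edgeR adjusted p = 0.661). PSMB8 (ENSG00000204264.9, chromosome 6, minus strand, 32840717 to 32844703), which replaces PSMB5, had 32.6 and 32.5 CPM with PBS, against 26.2 and 26.3 CPM after rIL-17B. By library total it was the member whose replicates agreed best, with SDs of 0.0413 and 0.0782 CPM. SDs this small lie below counting error at 383 to 518 counts. The rIL-17B libraries lay at 80.5% and 80.9% of the PBS mean. After TMM normalization PSMB8 had 33.6 and 33.2 CPM with PBS, 24.5 CPM in rIL-17B 1 and 26.9 CPM in rIL-17B 2. Its log2 fold change was -0.38 (SE 0.12, edgeR unadjusted p = 0.039, adjusted p = 0.661). PSMB8 and PSMB9 share 139 exon bases on opposite strands and overlap the non-coding gene PSMB8-AS1, which had 9 to 20 counts per library. The use of strand in counting is not given in the sources used here, so reads from these bases cannot be told apart. In 50-base windows of the longest coding transcript, 12.1% of PSMB9 and 0% of PSMB8 matched another gene exactly. Any effect of this on the PSMB9 counts was not tested.

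The constitutive subunits that PSMB8 and PSMB9 replace lay on the other side of PBS. PSMB6 had 78.6 and 78.8 CPM with PBS, 121 CPM in rIL-17B 1 and 85.2 CPM in rIL-17B 2, and PSMB5 had 105 and 112 CPM with PBS, against 134 and 116 CPM after rIL-17B. As a share of the PSMB9 and PSMB6 counts together, PSMB9 was 13.3% (95% Wilson interval 11.7 to 15.2) and 13.5% (11.6 to 15.5) with PBS, 1.29% (0.859 to 1.92) in rIL-17B 1 and 7.94% (6.73 to 9.36) in rIL-17B 2. PSMB8 was 23.6% (21.9 to 25.5) and 22.4% (20.6 to 24.4) of PSMB8 and PSMB5 with PBS, 16.4% (14.9 to 17.9) in rIL-17B 1 and 18.5% (17.02 to 20.07) in rIL-17B 2. For both pairs the intervals of the rIL-17B libraries were below those of the PBS libraries, and these intervals cover counting error only. The shares restate the CPM values. In CPM, PSMB8 and PSMB9 were below both PBS libraries, as 27.5% of all genes tested were. PSMB5 and PSMB6 were above both, as 31.5% were. How often other gene pairs separate in this way was not computed. PSMB10, the third inducible subunit, had few counts (30 to 65), and its rIL-17B libraries lay on opposite sides of PBS. Its share of PSMB10 and PSMB7 was 2.06% (1.52 to 2.78) and 2.36% (1.71 to 3.23) with PBS. It was 1.11% (0.776 to 1.57) in rIL-17B 1 and 2.66% (2.096 to 3.381) in rIL-17B 2. The rIL-17B 1 interval lay below that of PBS 2 and overlapped that of PBS 1. PSMB9 also differed from its head-to-head neighbour TAP1, taking 21.1% and 20.4% of the counts of that pair with PBS, 4.79% (3.21 to 7.09) in rIL-17B 1 and 13.9% (11.9 to 16.3) in rIL-17B 2.

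**Figure D4:**
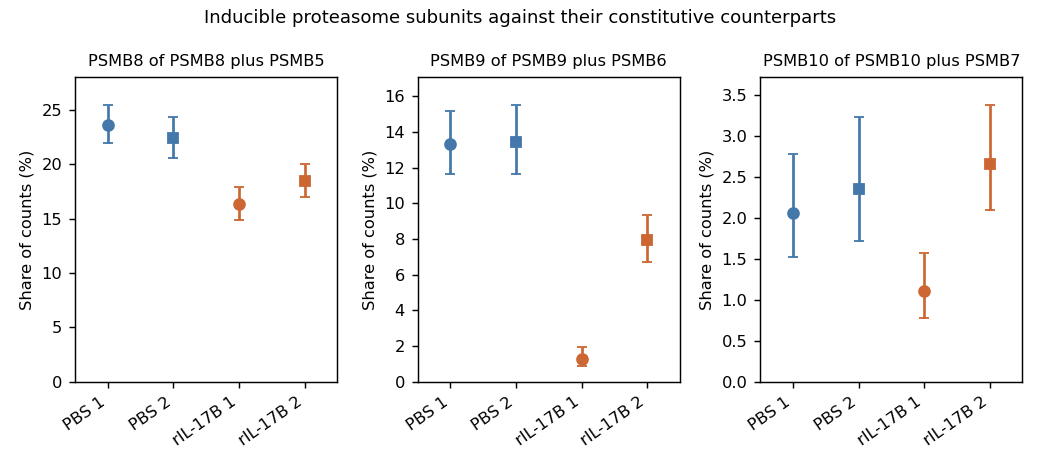
Share (%) of each inducible catalytic subunit in its summed counts with the constitutive subunit it replaces, per library, with 95% Wilson intervals as bars (counting error only). PSMB8 and PSMB9 shares of the rIL-17B libraries lie below those of either PBS library (PSMB9 13.3% and 13.5% against 1.29% and 7.94%), and PSMB10 shares overlap.

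NLRC5 (ENSG00000140853.15, chromosome 16, plus strand, 56989485 to 57083531) was the exception among the 9. It had 116 and 123 CPM with PBS, 192 CPM in rIL-17B 1 and 139 CPM in rIL-17B 2. Both rIL-17B libraries lay above both PBS libraries, at 161% and 117% of the PBS mean. The log2 fold change was 0.40 (SE 0.16, edgeR unadjusted p = 0.0709, adjusted p = 0.661). The transactivator was thus highest in the library with the lowest CPM of the heavy chains, B2M, the transporter and PSMB9.

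The size of these differences depended on which rIL-17B library was used. The fits that left out 1 rIL-17B library share both PBS libraries, and each assumes that the lone treated library would vary like the PBS pair. Without rIL-17B 1, 2 of the 9 genes were lower at an edgeR adjusted p under 0.05, where 2.3% of 17103 genes were lower, and 0 were higher, where 0.643% were. HLA-B fell by 0.37 on the log2 scale (SE 0.09, edgeR adjusted p = 0.00272), and PSMB9 fell by 0.73 (SE 0.20, edgeR adjusted p = 0.0162). PSMB8 was at -0.31 (edgeR adjusted p = 0.200) and NLRC5 at 0.22 (edgeR adjusted p = 0.184), and the other 5 genes were between -0.08 and -0.04. Without rIL-17B 2, 8 of the 9 genes were lower, where 31.9% of 17223 genes were, and NLRC5 was higher, where 23.2% were. The log2 fold changes were then -3.25 for HLA-B, -3.08 for PSMB9, -1.73 for HLA-E, -1.35 for B2M, -0.90 for HLA-C, -0.71 for TAP1, -0.55 for TAP2, -0.45 for PSMB8 and 0.55 for NLRC5. HLA-B and PSMB9 had the lowest fold changes in each of these fits.

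**Figure D5:**
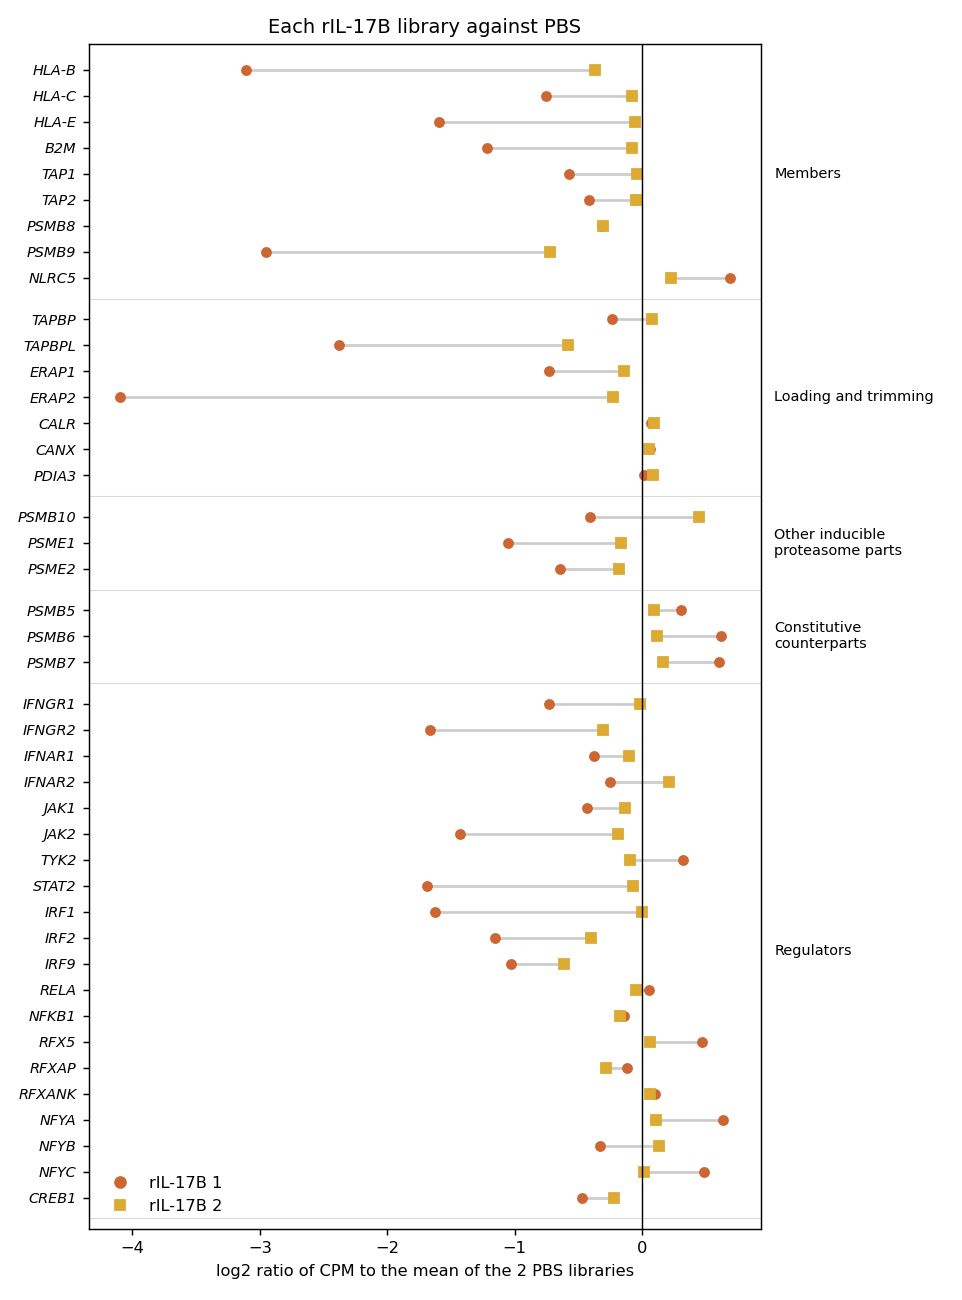
log2 ratio of CPM in each rIL-17B library to the mean of the 2 PBS libraries (x axis) for the 9 members and for other genes of the pathway, with circles for rIL-17B 1 and squares for rIL-17B 2. HLA-B and PSMB9 reach -3.11 and -2.95 in rIL-17B 1 and -0.37 and -0.73 in rIL-17B 2, NLRC5 and the constitutive subunits lie to the right of 0 in both, and CALR, CANX and PDIA3 lie close to 0.

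Other genes of the pathway were read from the same fit, and 0 of them had an edgeR adjusted p under 0.05 (0 also at an unadjusted p under 0.05). Of the 7 genes that load and trim peptides, 3 were below both PBS libraries in both rIL-17B libraries and 1 was above, where 27.5% and 31.5% of all genes were. Their median log2 fold change was -0.13 and turned to 0.05 without rIL-17B 1, where 0 of the 7 were called. TAPBPL, a tapasin relative that edits the bound peptide, had 10.8 and 10.6 CPM with PBS, 2.05 CPM in rIL-17B 1 and 7.12 CPM in rIL-17B 2. ERAP2, an aminopeptidase that trims peptides in the endoplasmic reticulum, had the widest difference of the list in rIL-17B 1, with 387 and 261 counts with PBS, 19 in rIL-17B 1 and 333 in rIL-17B 2. The general chaperones of this list lay near their PBS levels, and CALR had 1520 and 1419 CPM with PBS, against 1540 and 1563 CPM after rIL-17B (log2 fold change 0.01, SE 0.15). Of the other heavy chains, HLA-F had 5.78 and 6.75 CPM with PBS, 2.60 CPM in rIL-17B 1 and 5.01 CPM in rIL-17B 2, and HLA-G had 0 to 2 counts. Without rIL-17B 1 the log2 fold change of HLA-F was -0.32 (edgeR adjusted p = 0.645). PSME1 and PSME2, which form the interferon-inducible proteasome activator, were below both PBS libraries in both rIL-17B libraries, PSME1 with 49.1 and 46.0 CPM against 22.9 and 42.3 CPM. Without rIL-17B 1 they had log2 fold changes of -0.18 and -0.19, and neither was called. PSMB5, PSMB6 and PSMB7 were above both PBS libraries in both, with a median log2 fold change of 0.31, and of 0.11 without rIL-17B 1, where 0 of the 3 were called.

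Of 21 regulators of class I transcription, 16 had a fold change under 0, as did 8608 of the 16361 genes tested. In both rIL-17B libraries 12 were below and 4 above both PBS libraries, where 27.5% and 31.5% of all genes were. Their median log2 fold change was -0.30, and -0.08 without rIL-17B 1. CREB1, a factor that binds the CREB/ATF site, had the smallest unadjusted p of the list (0.101), at 45.7 and 52.5 CPM with PBS, against 35.3 and 42.2 CPM after rIL-17B. The largest difference belonged to IFNGR2, a chain of the interferon-γ receptor, with 29.8 and 27.4 CPM with PBS, 9.03 CPM in rIL-17B 1 and 23.1 CPM in rIL-17B 2 (log2 fold change -0.87, edgeR adjusted p = 0.661). IRF1, an interferon-induced activator of class I genes, had 16.4 and 14.8 CPM with PBS, 5.06 CPM in rIL-17B 1 and 15.6 CPM in rIL-17B 2, so the groups overlapped. RFX5, a subunit of the RFX complex with which NLRC5 works, had 75.3 and 80.8 CPM with PBS, 108 CPM in rIL-17B 1 and 81.6 CPM in rIL-17B 2. In the fit without rIL-17B 1, 0 of the 21 had an edgeR adjusted p under 0.05, and without rIL-17B 2 there were 11 lower and 3 higher, where 31.9% and 23.2% of all genes were. IRF1 and RFX5 were picked after their values were seen, for their place in the pathway.

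The class II pathway, through which antigen presenting cells show peptides to CD4+ T cells, had little RNA in rIL-17B 1. The summed level of 8 class II genes was 62.9 and 60.5 CPM with PBS, 2.67 CPM in rIL-17B 1 and 52.7 CPM in rIL-17B 2. CD74, the invariant chain, had 607 and 487 counts with PBS, 6 in rIL-17B 1 and 587 in rIL-17B 2. HLA-DRA had 116 and 96 counts with PBS, 0 in rIL-17B 1 and 94 in rIL-17B 2, and was at least 35.9-fold lower in rIL-17B 1 than the PBS mean when 0 was set to the floor of 3 counts per library. CIITA, the class II transactivator and a relative of NLRC5, had 25 and 22 counts with PBS, 12 in rIL-17B 1 and 36 in rIL-17B 2. The median log2 fold change of the 6 class II genes tested was -1.13, and -0.18 without rIL-17B 1. None of the 6 had an edgeR adjusted p under 0.05 with the 4 libraries (0 called, and 0 at an unadjusted p under 0.05) or without rIL-17B 1, and 5 were lower without rIL-17B 2, where 31.9% of all genes were.

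Cell type markers also differed in rIL-17B 1. The summed level of 9 leukocyte and monocyte markers was 13.0 and 14.3 CPM with PBS, 8.62 CPM in rIL-17B 1 and 13.2 CPM in rIL-17B 2, with 5 of the 9 at 0 in rIL-17B 1. Most of the sum in rIL-17B 1 was CSF1R, the receptor of macrophage colony-stimulating factor, which lay above both PBS libraries, with 3.90 and 5.59 CPM with PBS, 8.14 CPM in rIL-17B 1 and 6.15 CPM in rIL-17B 2. PTPRC, the pan-leukocyte marker, had 47 and 22 counts with PBS, 0 in rIL-17B 1 and 36 in rIL-17B 2. LYZ and CD68, abundant in monocytes and macrophages, had at most 4 counts in each library, as did FCGR3A. Other markers of the list had more. CD14 had 23 and 20 counts with PBS, 4 in rIL-17B 1 and 21 in rIL-17B 2. S100A9 had 36 and 43 with PBS, 0 in rIL-17B 1 and 36 in rIL-17B 2. S100A8 had 18 and 11 with PBS, 1 in rIL-17B 1 and 14 in rIL-17B 2. ITGAM had 16 and 10 with PBS, 0 in rIL-17B 1 and 12 in rIL-17B 2. The 5 epithelial markers summed to 777 and 783 CPM with PBS, 1818 CPM in rIL-17B 1 and 1001 CPM in rIL-17B 2, most of it from KRT8 and KRT18, while CDH1 had 7 to 11 counts. KRT19 went the other way in rIL-17B 1, with 47 and 43 counts with PBS, 1 in rIL-17B 1 and 58 in rIL-17B 2. The 4 mesenchymal markers VIM, FN1, CDH2 and ZEB1 summed to 34099 and 33416 CPM with PBS, 514 CPM in rIL-17B 1 and 28270 CPM in rIL-17B 2. FN1 carried nearly all of this sum outside rIL-17B 1, and VIM stood at 39.1%, CDH2 at 43.7% and ZEB1 at 24.8% of the PBS mean in rIL-17B 1. In the fit without rIL-17B 1, the log2 fold changes were 0.37 for KRT8, 0.30 for KRT18, 0.26 for EPCAM and 0.07 for KRT19. For the mesenchymal markers they were -0.35 for ZEB1, -0.26 for FN1, -0.22 for VIM and -0.19 for CDH2. The part of these differences in the class I results was not tested.

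Among the 5 other genes whose profile over the 4 libraries was nearest to the median profile of the 9 (log2 ratios of -0.75 in rIL-17B 1 and -0.08 in rIL-17B 2 to the PBS mean, after 0.5 CPM was added) were ZNF516, BAMBI, SAT1 and STK17B. Their root mean square distances were 0.0097 to 0.0189 on the log2 scale. With 4 libraries and 1 standing apart, the profile mostly gives the level in rIL-17B 1.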

How the data were processed

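RNA from 4 HGC-27 libraries was sequenced after Smart-seq2. The values deposited by the authors are raw counts of reads per gene name, not normalized. The submitters' processing notes name hg38, Bowtie2 2.2.3, HISAT2 2.1.0, TopHat2 and HTSeq 0.6.0. The annotation, read length and use of strand are not given in the sources used here. Names listed more than once (83 to 98 per library) were used once, entries with numeric names (22 to 25 per library, at most 0.244% of counts) were left out, and a gene not listed had 0 counts. Groups, dose and time came from the labels.

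The treatment difference was tested across genes in R 4.3.3 by edgeR 4.0.16 (TMM, filterByExpr, quasi-likelihood F test, Benjamini-Hochberg over 16361 genes, threshold 0.05, two-sided). The edgeR fit was also run on simulated counts that had the spread of the PBS pair in each library. That simulation does not cover a treated library that stands apart. TMM factors were 0.970 to 1.07. An SE is the log2 fold change divided by the square root of F. No permutation test was run on single genes, since 2 libraries against 2 allow no small p. Alternatives were DESeq2 1.42.0, other normalizations and filters, a replicate block, and each library left out. Intervals are Wilson at 95%, and PCR copies are not independent molecules. The members, gene lists, motifs and tests were chosen with earlier results of these data known, the motifs from general knowledge with the sequences in view. Named were all members, the list genes with the smallest p or largest difference, and the 5 genes nearest in profile, except that some results are not reported here. Other named genes were chosen after their values were seen.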

Additional observations from a re-analysis of the deposited data

How the results depend on the processing

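The 6 alternatives that kept all 4 libraries (DESeq2, upper-quartile normalization, library totals, a minimum of 10 counts in every library, no low-count filter, and the replicate number as a block) left 0 genes and 0 members called, and each of the 54 member fold changes kept its sign. The widest ranges were HLA-B, from -1.80 to -1.17, and PSMB9, from -1.88 to -1.44 on the log2 scale. With the replicate block the median log2 fold change of the members was -0.49. The edgeR unadjusted p of PSMB8 was 0.0383 with upper-quartile normalization and 0.0329 with the minimum of 10 counts. It was 0.0775 with library totals, 0.0852 with no low-count filter and 0.0965 with the replicate block. Same-numbered libraries deviated together with a correlation of 0.0800, and with 2 pairs the numbers were not taken to pair the libraries. Leaving out each library in turn gave 0 to 9489 genes called, 0 to 9 members called, and a median log2 fold change of the members from -0.90 to -0.08. Both PBS libraries gave 0 called when left out, rIL-17B 1 gave 504 genes and 2 members, and rIL-17B 2 gave 9489 genes and 9 members. By construction, each of the last 2 fits takes its spread from the PBS pair. TMM-scaled CPM moved 6 of the 36 member values by more than 1 SD of their group. PSMB9 rested on 23 counts in rIL-17B 1, which limits its precision there.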
